A study of Mus musculus with 4 samples.

Results

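A group of 9 imprinted genes (Ndn, Magel2, Snrpn, Ube3a, Peg3, Meg3, Rian, Mirg and Impact) was examined out of the 32285 genes listed for nuclei of the mouse lateral septum (LS). The genes were taken by their symbols. Ndn had been selected because earlier results from these same counts showed more of it in neurons of nude and BALB/c mice, so the levels of the 9 genes between mouse backgrounds are given here as a description, without a test. All 9 genes passed the filter on low counts in neurons and in each of 4 glial classes, and all 9 are described.

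Imprinted genes are transcribed mainly from the copy inherited from the mother or mainly from the copy inherited from the father. They often lie in domains under a shared control region, and many are prominent in the brain. Ndn, Magel2 and Snrpn are paternally expressed genes of the region affected in Prader-Willi syndrome, and the neighboring Ube3a, the gene of Angelman syndrome, is expressed from the maternal copy in neurons, where an antisense transcript silences the paternal copy. Meg3, Rian and Mirg are maternally expressed noncoding RNAs of the Dlk1-Dio3 domain. UMI counts do not separate the parental copies, so imprinting itself was not measured.

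Single-nucleus RNA sequencing with 10x Genomics chemistry counted molecules by unique molecular identifiers (UMIs) in 4 libraries. Each library held the microdissected LS of 3 pooled male mice of 6 to 8 weeks. The C57J 1 and C57J 2 libraries came from C57BL/6JNifdc mice, the nude library from BALB/c nude mice, which lack Foxn1 and therefore mature T cells and descend from BALB/c, and the BALB/c library from BALB/c mice. C57J 1 belonged to batch 1 and the other libraries to batch 2. With 1 library each, the nude allele, the pool of mice and the library cannot be told apart, and the strain background cannot be told apart from the pools that carried it. Foxn1 had 5, 2, 4 and 3 UMIs across the 4 libraries, too few to check the nude label.

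The libraries held between 72912922 and 125998527 UMIs. After quality limits and removal of predicted doublets, 10913 to 13075 nuclei per library remained, with a median of 4176 to 8371 UMIs per nucleus, highest in BALB/c. Between 29 and 63 barcodes were shared by any pair of libraries. The nuclei formed neurons (31361), astrocytes (6720), oligodendrocytes (5356), OPCs (oligodendrocyte precursor cells, 1956) and microglia (1349), each named from markers whose summed level was highest in it in every library. The 9 genes and the other imprinted genes were not used to build these classes. The level of a gene is given in CPM, its UMIs per 1000000 UMIs of a class in a library, with 4 values always in the order C57J 1, C57J 2, nude, BALB/c. Levels are compared within a gene, since the counts carry no correction for length.

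The chromosome 7 genes and the chromosome 12 genes differ in arrangement (GRCm38, GENCODE vM21). Ndn (ENSMUSG00000033585, chr7:62346569-62350262, plus strand) and Magel2 (ENSMUSG00000056972, chr7:62377010-62381640, plus strand) are protein-coding genes of a single exon, 26.7 kb apart, and both lie within the span of the antisense lincRNA Gm32061. Snrpn (ENSMUSG00000102252, chr7:59982495-60140219, minus strand) overlaps Snurf and Gm38393 on its own strand, so reads of these genes could be split between them. Ube3a (ENSMUSG00000025326, chr7:59228750-59311536, plus strand) shares 3.61 kb with the end of the antisense RNA Snhg14. Peg3 (ENSMUSG00000002265, chr7:6703892-6730431, minus strand) lies on the same chromosome, far from the others, and overlaps no other annotated gene. Meg3 (ENSMUSG00000021268, chr12:109541001-109571726), Rian (ENSMUSG00000097451, chr12:109603940-109661716) and Mirg (ENSMUSG00000097391, chr12:109729764-109749460) follow each other on the plus strand, with 32.2 kb between Meg3 and Rian and 68.0 kb between Rian and Mirg.

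Promoter windows, from 250 bases before to 50 bases after the start that RefSeq gives, are printed 5′ to 3′ in the sense of the gene for 3 genes: Ndn and its neighbor Magel2, whose levels differed between libraries in opposite directions, and Meg3, which heads the 3 RNAs of chromosome 12 that varied together across neurons. Capitals mark CG dinucleotides, the letters that DNA methylation acts on. The Ndn window (chr7:62348027-62348326, GRCm38, plus strand) lies inside the longer gene of GENCODE, since RefSeq starts Ndn further downstream. It is followed by those of Magel2 (chr7:62376729-62377028, plus strand) and Meg3 (chr12:109540746-109541045, plus strand).
Ndn promoter: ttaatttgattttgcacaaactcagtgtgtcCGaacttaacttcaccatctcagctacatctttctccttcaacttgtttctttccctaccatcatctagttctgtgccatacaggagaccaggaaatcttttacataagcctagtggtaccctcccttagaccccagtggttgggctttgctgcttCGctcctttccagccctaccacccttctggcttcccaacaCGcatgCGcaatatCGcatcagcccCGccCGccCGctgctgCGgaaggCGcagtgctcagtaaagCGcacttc
Magel2 promoter: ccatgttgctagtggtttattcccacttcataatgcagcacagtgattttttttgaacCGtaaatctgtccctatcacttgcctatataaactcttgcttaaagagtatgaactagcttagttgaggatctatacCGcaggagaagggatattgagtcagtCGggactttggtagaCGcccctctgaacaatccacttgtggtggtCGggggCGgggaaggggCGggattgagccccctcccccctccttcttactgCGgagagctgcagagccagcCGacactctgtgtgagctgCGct
Meg3 promoter: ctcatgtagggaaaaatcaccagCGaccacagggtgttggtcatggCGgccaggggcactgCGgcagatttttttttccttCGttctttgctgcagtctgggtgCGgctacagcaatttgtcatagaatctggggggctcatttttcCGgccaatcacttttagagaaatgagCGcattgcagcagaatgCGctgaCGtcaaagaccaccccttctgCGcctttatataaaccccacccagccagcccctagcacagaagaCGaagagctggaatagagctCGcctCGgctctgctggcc
The windows held 11, 10 and 13 CG dinucleotides, and 41.4%, 43.5% and 37.9% of 32851 RefSeq promoters of the same length held as many or more. RefSeq gives Meg3 a further start downstream, whose window (chr12:109545148-109545447) is not printed. That window held 1 CG, and 94.6% of the promoters held as many or more. The letters TGACGTCA, the palindrome bound by cyclic AMP response factors, stood once in the printed Meg3 window and once in that of Peg3. They were absent from the further Meg3 window and stood in 1.79% of all windows. The letters GCATGCGC stood once in the Ndn window, and in 2.71% of all windows. Both strands were searched, and both motifs were chosen after the sequences had been read.

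Rian and Mirg are host transcripts of small RNAs. The span of Rian holds 13 snoRNA genes and 4 miRNA genes, and that of Mirg 15 miRNA genes, of which 1 (Gm24321) lies on the opposite strand. Of the mature miRNAs in RefSeq, 3 lie within Meg3, 6 within Rian and 26 within Mirg. The 26 of Mirg carry 25 different seeds (bases 2 to 8, in capitals), and only miR-453 and miR-496a-5p share one. They are shown with miR-134-5p and miR-410-3p, whose seeds occur once among the Mirg miRNAs, to let the products of this transcript be seen. Mature miRNAs were not measured by these libraries. In the order printed, from miR-453, they lie at chr12:109735669-109735692, chr12:109739132-109739152, chr12:109734145-109734166 and chr12:109743764-109743784 on the plus strand of GRCm38, and the sequences are those of RefSeq.
miR-453: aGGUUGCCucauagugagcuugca
miR-496a-5p: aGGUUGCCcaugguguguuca
miR-134-5p: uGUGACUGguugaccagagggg
miR-410-3p: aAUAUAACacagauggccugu

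To see in which cells the 9 genes were found, neurons were compared with each glial class in 1 edgeR quasi-likelihood fit with the library as a block. This main fit scaled the sums by total UMIs and TMM factors, so its log2 differences can depart from ratios of the CPM printed. For example, Magel2 in nude microglia (19.6 CPM) lay above nude neurons (18.7), while its fitted difference in microglia was -0.94. In the main fit, 6 genes (Meg3, Rian, Mirg, Ube3a, Peg3 and Magel2) were called higher in neurons than in all 4 glial classes, and Snrpn than in 3. Ndn was called lower in neurons than in all 4 in the main fit, and higher in neurons than in all 4 when scaled per nucleus. Impact passed the limits against no class in the main fit. A gene was called at an adjusted p below 0.05 and a log2 difference above 0.5. Of all 14630 genes tested, 25.7%, 28.5%, 20.9% and 28.4% were called higher in neurons than in astrocytes, oligodendrocytes, OPCs and microglia, and 27.9%, 26.6%, 21.9% and 25.2% were called lower. The median log2 difference of the 9 genes, glia minus neurons, was -1.44, -1.18, -1.36 and -1.19 in the same order, beside 0.03, 0.00, 0.00 and -0.07 for all genes.

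**Figure D1:**
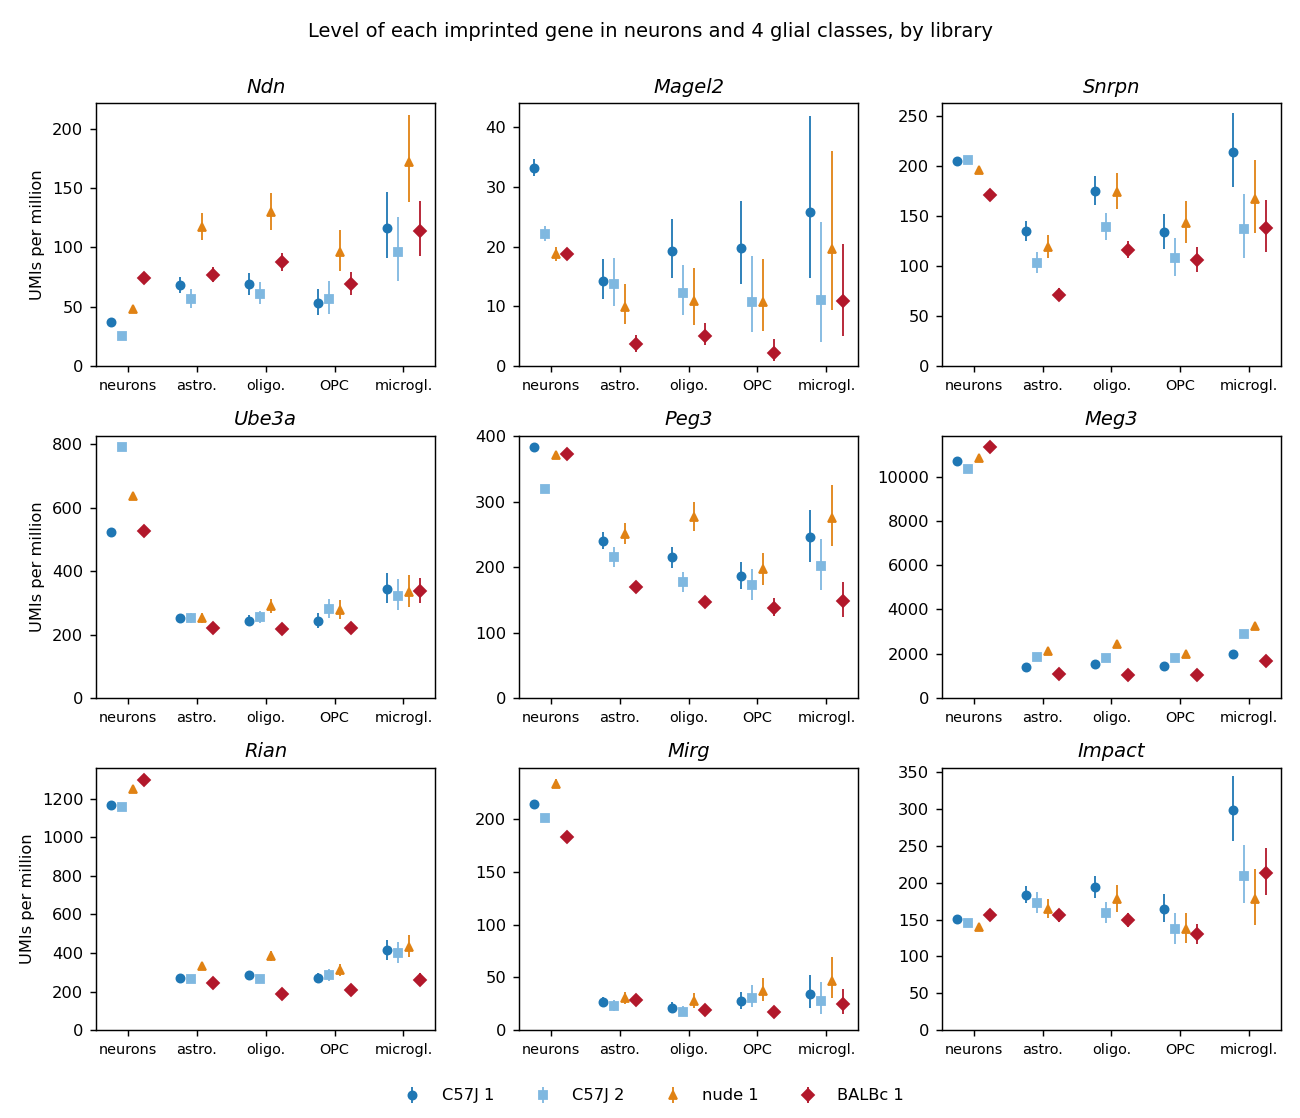
Each panel plots the level of 1 gene (CPM, linear axis from 0) in neurons, astrocytes (astro.), oligodendrocytes (oligo.), OPCs and microglia (microgl.), with a point for each of the 4 libraries and its exact Poisson 95% interval, which covers counting error only. Meg3, Rian, Mirg and Ube3a lay far higher in neurons in every library. Ndn lay lower in neurons in CPM, except in BALB/c, where neurons (74.1) stood above OPCs (68.8) and close to astrocytes (76.9). When UMIs are counted per nucleus, Ndn lay higher in neurons.

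The RNAs of the chromosome 12 domain had the steepest step between neurons and glia. Meg3, a long noncoding RNA, stood at 10708, 10352, 10830 and 11326 CPM in neurons of C57J 1, C57J 2, nude and BALB/c, and at 1043 to 3273 in the glial classes. Neurons and glia did not overlap in any library. The log2 difference of Meg3 was -2.96 ± 0.21 (SE) in astrocytes (edgeR adjusted p = 3.89e-10) and between -2.93 and -2.63 in the other classes. Rian stood at 1166, 1156, 1248 and 1297 in neurons and at 189 to 432 in glia, a log2 difference of -2.28 ± 0.14 in astrocytes (edgeR adjusted p = 5.36e-11). Mirg stood at 215, 201, 234 and 183 in neurons and at 17.2 to 46.9 in glia. Its difference was the widest of the 9 genes, -3.38 ± 0.13 in oligodendrocytes (edgeR adjusted p = 8.46e-14).

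Ube3a encodes an E3 ubiquitin ligase. Its level in neurons was 525, 791, 636 and 527 in that order of libraries, and 217 to 344 in glia. C57J 2 stood well above the other libraries in neurons, while the 4 libraries lay close together in astrocytes, at 252, 252, 253 and 221. The log2 difference from neurons was between -1.46 and -1.29 over the 4 classes, with edgeR adjusted p = 2.17e-09 in astrocytes. Snrpn, which encodes the spliceosomal protein SmN of neurons, stood at 205, 206, 196 and 171 in neurons. In microglia of C57J 1 it reached 213, above the neurons of that library, and over the 4 classes its log2 difference was between -1.03 and -0.48, the smallest of which (oligodendrocytes) missed the limit of 0.5.

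Peg3, a zinc finger protein, stood at 384, 319, 372 and 373 in neurons and at 138 to 277 in glia, with log2 differences between -1.19 and -0.88 and edgeR adjusted p = 1.21e-06 in astrocytes. Magel2, a MAGE family protein that takes part in endosomal protein recycling, was sparse, at 33.2, 22.2, 18.7 and 18.8 in neurons. Its glial levels ran from 2.11 in OPCs of BALB/c, where it rested on few UMIs, to 25.8 in microglia of C57J 1. The log2 difference of Magel2 was -1.44 ± 0.21 in astrocytes (edgeR adjusted p = 7.74e-06) and -0.94 ± 0.31 in microglia (edgeR adjusted p = 0.0137).

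Ndn encodes necdin, another MAGE family protein, known from postmitotic neurons. Its level in neurons was 36.8, 25, 48.2 and 74.1 CPM over the libraries. In astrocytes it was 68.0, 56.4, 117 and 76.9, and in microglia 116, 96.0, 172 and 114. Glia exceeded neurons in all 4 libraries in astrocytes, oligodendrocytes and microglia. In OPCs the order was the same in C57J 1, C57J 2 and nude (52.9, 56.4 and 96.4) and turned in BALB/c (68.8). The fitted log2 difference, glia minus neurons, was 0.68 ± 0.15 in astrocytes, 0.83 ± 0.15 in oligodendrocytes, 0.52 ± 0.16 in OPCs and 1.05 ± 0.17 in microglia (edgeR adjusted p between 3.27e-05 and 0.0124). The call in OPCs was the least stable. Its adjusted p in edgeR was 0.0598 without C57J 1, 0.124 without C57J 2 and 0.104 without nude, and 3.99e-06 without BALB/c. With all 4 libraries the call was also lost after thinning (adjusted p = 0.0798), with predicted doublets kept (0.0984), without a term for the library (0.215) and, by a difference of 0.45, without a filter on low counts.

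The direction for Ndn depended on the scale. A neuron held 2.29 to 4.85 times the UMIs of a glial nucleus over all genes, so the same count per nucleus gives a higher CPM in glia. Per nucleus, Ndn was found at 0.289, 0.166, 0.324 and 0.961 UMIs in neurons of C57J 1, C57J 2, nude and BALB/c, and at 0.121 to 0.386 in the glial classes. Neurons thus held 1.11 to 2.99 times as much, and the excess was at most 1.66-fold outside the BALB/c library. With the sums scaled to the number of nuclei, an alternative chosen after seeing the data, the log2 difference of Ndn was -0.73, -0.79, -0.67 and -0.70 in astrocytes, oligodendrocytes, OPCs and microglia, beside -1.37, -1.61, -1.18 and -1.82 for the median gene. All 9 genes were then called higher in neurons than in all 4 classes. So were most genes: 11653, 12290, 11185 and 12143 of all 14630 were called higher in neurons than in these classes, in the same order.

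Impact, which encodes an inhibitor of the translation regulator GCN2, had the smallest differences of the 9 genes in the main fit. Its level was 151, 145, 140 and 156 in neurons of C57J 1, C57J 2, nude and BALB/c. In astrocytes it was 184, 173, 165 and 156, and in microglia 299, 209, 178 and 214. In CPM, microglia thus lay above neurons in every library, further than the fitted difference, which rests on TMM factors. The fitted log2 differences ran from -0.15 ± 0.10 in OPCs to 0.17 ± 0.10 in microglia (edgeR adjusted p between 0.152 and 0.63), and from -1.58 to -1.34 per nucleus. Over the libraries and classes a neuron held 2.10 to 3.39 times the Impact UMIs of a glial nucleus.

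**Figure D2:**
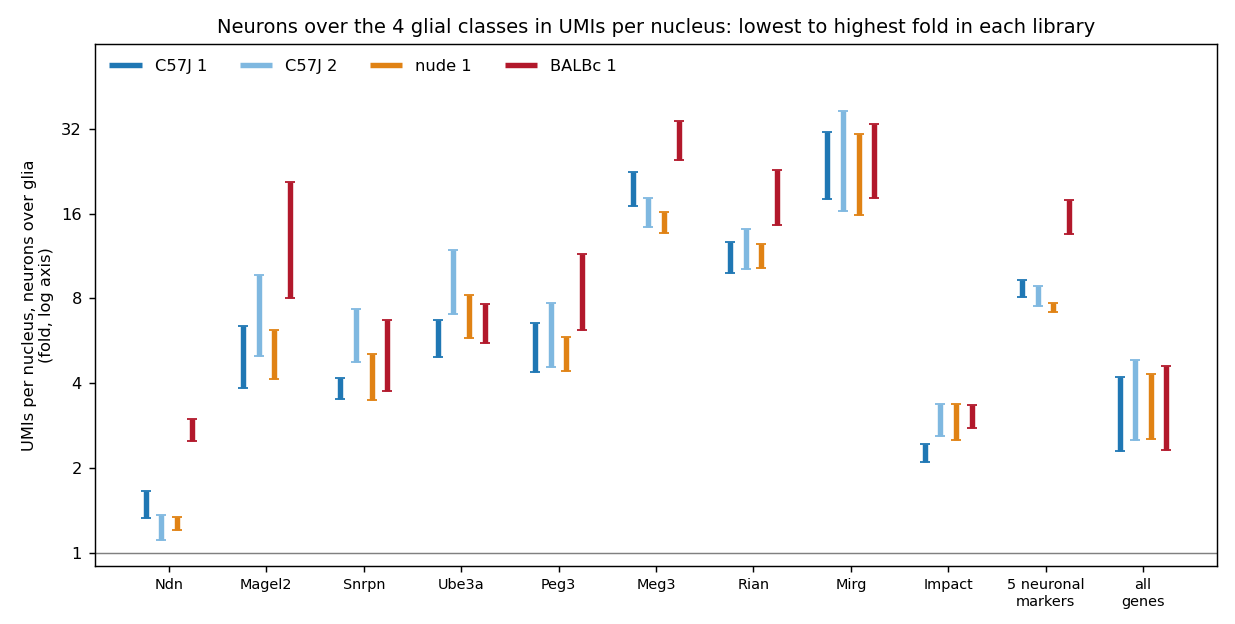
The bars span, for each library, the lowest to the highest fold of UMIs per nucleus in neurons over the 4 glial classes (log axis, 1 marks equal counts), for the 9 genes, for 5 neuronal markers summed and for all genes. Ndn had the lowest folds (1.11 to 2.99), Impact lay within the range of all genes (2.29 to 4.85) or just under it, and Meg3 and Mirg had the highest.

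Neuronal RNA was also counted in glial nuclei. The 5 neuronal markers Snap25, Syt1, Rbfox3, Gad2 and Slc32a1 summed to 32.6 to 67.0 UMIs per neuron and to 3.68 to 5.22 per glial nucleus, with 0 of the 5 at 0 in any class, and their sum differed by only 1.08 to 1.32-fold between the glial classes of a library. Ndn per glial nucleus differed by 1.11 to 1.25-fold between the classes of a library, and Meg3 by 1.18 to 1.38-fold. The excess of neurons was 7.15 to 17.8-fold for the summed markers, against 13.7 to 34.2-fold for Meg3 and 1.11 to 2.99-fold for Ndn. The single markers differed widely. Slc32a1 had an excess of 1.48 to 4.35-fold, which overlapped the range of Ndn over the libraries but lay above Ndn within each library. The lowest folds of Gad2, Snap25, Syt1 and Rbfox3 were 3.93, 4.40, 8.22 and 13.8, all above the range of Ndn. Per 1000 UMIs of Meg3, Ndn had 3.44, 2.41, 4.45 and 6.54 UMIs in neurons and 30.6 to 83.8 in glia. The part of neuronal RNA in the glial levels was not tested further.

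The share of nuclei with a UMI followed depth and scale in the same way. After every nucleus was thinned to 1000 UMIs, Ndn was found in 3.89%, 2.52%, 5.49% and 7.78% of neurons of C57J 1, C57J 2, nude and BALB/c, and in 23.9%, 15.2%, 27.1% and 58.7% without thinning. In microglia the thinned shares were 10.9%, 9.04%, 16.3% and 11.5%, and 18.4%, 12.9%, 23.8% and 27.1% without thinning. The thinned share in neurons lay below that in microglia in all 4 libraries, as the CPM did, since thinning gives every nucleus the same depth. Without thinning the share in neurons lay above that in microglia in all 4 libraries. The source of the Ndn UMIs in each class was not tested. For Mirg the thinned shares were 16.4% to 20.6% in neurons and 2.03% to 5.33% in microglia. Thinning left out at most 3 neurons and at most 52 microglia of a library, and the median depth of neurons was 6071 to 12184 UMIs against 1323 to 2667 in microglia.

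The comparison of the backgrounds set the nude and BALB/c libraries against both C57J libraries in edgeR, on UMIs summed per library. It was the contrast on which Ndn was selected, and nothing is read from it for the 9 genes beyond their values. Of 19657 genes tested in neurons 1.95% were called, as were 0.151% in astrocytes, 0.0793% in oligodendrocytes, 0.287% in OPCs and 0.0% in microglia. In neurons both BALB/c background libraries lay above both C57J libraries for 3 of the 9 genes (Ndn, Meg3 and Rian), as for 18.9% of all genes, and below them for 2 (Magel2 and Snrpn), as for 25.8%.

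For Ndn, the neuronal levels of nude (48.2) and BALB/c (74.1) did not overlap with those of C57J 1 (36.8) and C57J 2 (25). The fitted log2 difference was 1.00 ± 0.26. BALB/c stood well above nude and C57J 1 well above C57J 2, so libraries of the same background were also spread. The alternatives reuse the counts on which Ndn was selected, so the positive sign of the difference was given beforehand. Over 10 of them the difference ran from 0.66, without BALB/c, to 1.34 ± 0.34 within batch 2, where only C57J 2 represents the C57J mice. Without C57J 2 it was 0.73, and without nude 1.30.

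In glia the order of the libraries in CPM was another. Ndn was highest in nude in all 4 glial classes, for example 130 in oligodendrocytes against 87.4 in BALB/c and 68.8 and 60.8 in C57J 1 and C57J 2. The groups did not overlap in astrocytes, oligodendrocytes and OPCs, with log2 differences of 0.70 ± 0.22, 0.77 ± 0.23 and 0.65 ± 0.21. In microglia nude (172) lay above and BALB/c (114) between the C57J libraries (116 and 96.0), with a difference of 0.48 ± 0.31. Whether the difference varied between neurons and glia was not tested. The CPM of the 5 neuronal markers was also highest in nude in every glial class, and lowest in BALB/c. In oligodendrocytes it was 1800, 1806, 2569 and 915. The part of neuronal RNA in the glial values of Ndn was not tested.

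Magel2, the nearest neighbor of Ndn, went the other way in these libraries. In neurons C57J 1 stood at 33.2 and C57J 2 at 22.2, and nude and BALB/c at 18.7 and 18.8, a log2 difference of -0.55 ± 0.20. Most of it rested on C57J 1, the library of batch 1: within batch 2 the difference was -0.19 ± 0.15. In astrocytes, oligodendrocytes and OPCs the differences were -1.08 ± 0.45, -1.05 ± 0.43 and -1.51 ± 0.63, and in microglia the groups overlapped. In OPCs nude (10.7) and C57J 2 (10.8) were all but equal, on 14 and 13 UMIs, with 6 UMIs in BALB/c. Nude and C57J 2 stood at 9.92 and 13.7 in astrocytes and at 10.9 and 12.2 in oligodendrocytes. The Poisson intervals of these libraries overlapped in each of the classes named, so a lower level in nude than in C57J 2 is not resolved there. The CPM of the 5 neuronal markers was lowest in BALB/c in every glial class (in astrocytes 1636, 1709, 2037 and 811), as Magel2 was, and their part in the glial values of Magel2 was not tested.

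The other 7 genes differed little between the backgrounds. In neurons Rian had a log2 difference of 0.15 ± 0.07 and Meg3 of 0.09 ± 0.07, with nude and BALB/c above both C57J libraries. Snrpn had -0.14 ± 0.08, with BALB/c lowest. Ube3a (-0.15 ± 0.18), Peg3 (0.10 ± 0.11), Mirg (0.02 ± 0.12) and Impact (0.02 ± 0.09) overlapped between the groups. Within batch 2, Ube3a was at -0.39 ± 0.12 and Peg3 at 0.27 ± 0.10, since C57J 2 was the highest library for the former and the lowest for the latter. Over the 36 pairs of a gene and a glial class, 4 lay above and 4 below without overlap, where 12.7% and 22.8% of all such pairs did. Of the 4 above, 3 were of Ndn and 1 of Mirg (astrocytes), and of the 4 below, 3 were of Magel2 and 1 of Impact (astrocytes). These counts compare the levels alone, without their counting error, and Magel2 in OPCs was close to a tie between nude and C57J 2.

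**Figure D3:**
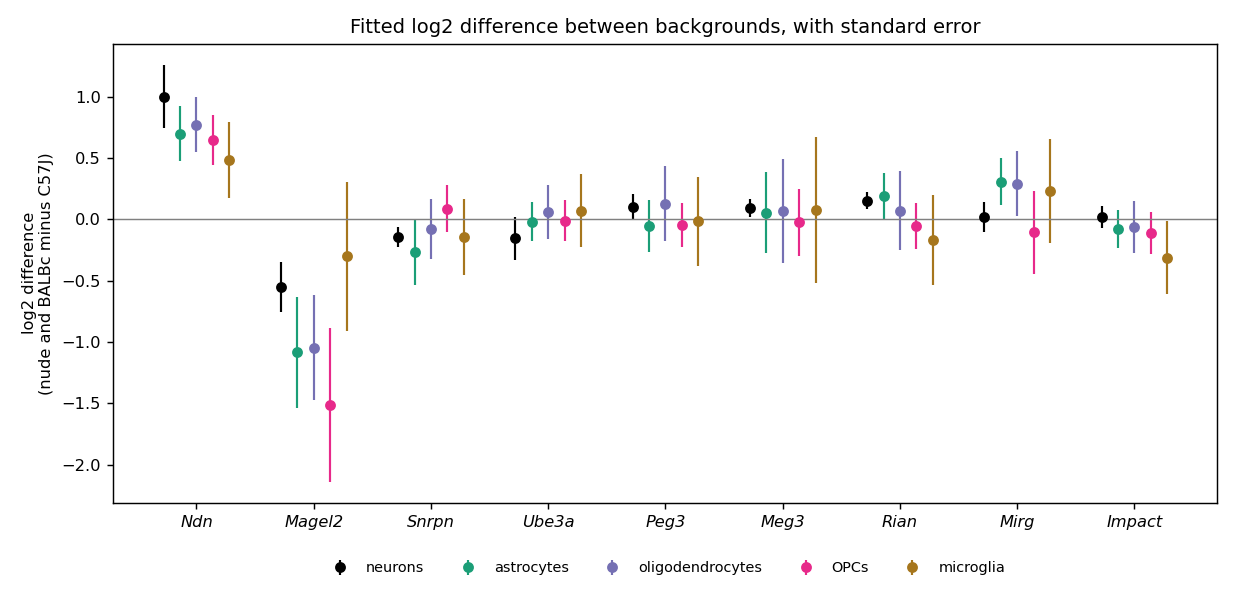
Points are fitted log2 differences of the level, nude and BALB/c minus C57J, with bars of 1 standard error, for the 9 genes in neurons and 4 glial classes. Ndn lay above 0 and Magel2 below 0 in all 5 classes, and the other genes lay between -0.31 and 0.31.

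Neurons were resolved into 26 types, called by their leading genes, of which 25 had at least 50 nuclei in every library and 17 were LS-like by their markers. Among the 225 pairs of a gene and a type, both BALB/c background libraries lay above both C57J libraries in 54 and below them in 46, where 17.7% and 21.8% of all gene and type pairs did. Ndn lay above in 24 of 25 types. Of 9106 genes with at least 10 CPM in neurons, 0.34% lay above in as many. The types divide the same neurons of the same libraries on which Ndn was selected. They are not separate comparisons, and the count and share for Ndn are no further evidence of a difference. BALB/c was the highest and C57J 2 the lowest library for Ndn in 25 of 25 types. The exception to the separation was Pde3a Slit2, where C57J 1 (47.0) stood above nude (40.4).

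The mean of Ndn over the 4 libraries ran from 31.1 in Col15a1 Matn2 to 75.5 in Ebf2 Ebf3, a 2.43-fold range. In Ebf2 Ebf3 the libraries C57J 1, C57J 2, nude and BALB/c stood at 64.5, 48.1, 91.4 and 98. In Cdh23 Gnrh1, the second type, they stood at 46.8, 35.0, 60.2 and 127. No 2 neighbors in the order of types differed beyond the range of their libraries. Across the 25 types the log2 level of Ndn had a Pearson correlation of -0.79 with the log2 median of UMIs per nucleus, a description over types that share the same 4 libraries and depth.

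Magel2 had the widest range over types, 6.92-fold. The Esr1 Pdlim5 type, LS-like and marked by the estrogen receptor gene Esr1, was the highest at 40.3, with 63.6, 29.6, 28.1 and 39.9 in that order of libraries. The striatum-like Rarb Prkch (5.81) and Tshz1 Foxp2 (7.08) and the type Sox6 Meis1 (8.24) were the lowest. The 4 libraries of Esr1 Pdlim5 all lay above those of these types. Magel2 lay below in nude and BALB/c in 15 of 25 types and above in 0, and 6.95% of the eligible genes lay below in as many.

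**Figure D4:**
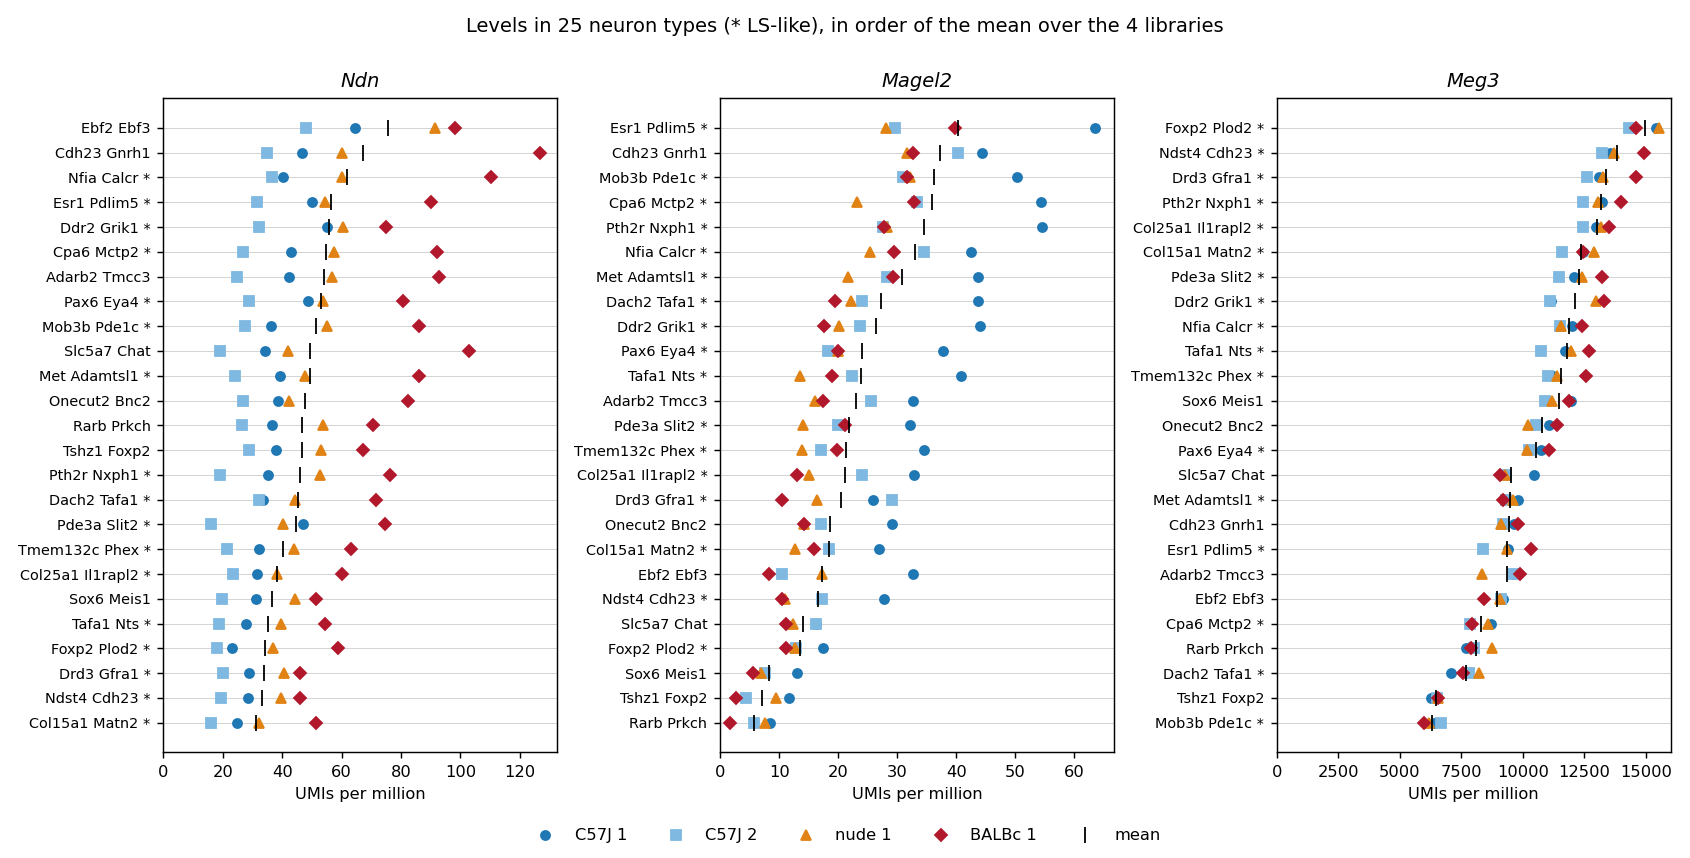
Rows are the 25 neuron types, ordered for each gene by the mean over libraries (black bar), and points are the 4 libraries (CPM, linear axis from 0) for Ndn, Magel2 and Meg3, with LS-like types marked by an asterisk. BALB/c was the highest library for Ndn in every type, C57J 1 was the highest for Magel2 in 23 of 25, and the libraries lay close together for Meg3.

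Each of the remaining genes had its own order of types. Snrpn was highest in Onecut2 Bnc2 (318) and Sox6 Meis1 (313) and lowest in Mob3b Pde1c (106), and lay below in nude and BALB/c in 16 of 25 types, where 5.7% of the eligible genes lay below in as many. Ube3a and Peg3 were both highest in Sox6 Meis1 (847 and 496) and lowest in Rarb Prkch (399 and 251). C57J 2 was the highest library for Ube3a in 25 of 25 types, and the groups overlapped in all of them. Peg3 lay above in 5 types and below in 1, where 37.8% and 87.9% of the eligible genes did so in at least as many. Impact ranged only from 120 in Mob3b Pde1c to 186 in the cholinergic-like Slc5a7 Chat, and lay above in 2 types and below in 10, where 67.6% and 17.9% of these genes did so in at least as many.

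Meg3, Rian and Mirg shared their extremes. All 3 were highest in the LS-like type Foxp2 Plod2, at 14958, 1525 and 266, and lowest in the LS-like type Mob3b Pde1c, at 6294, 763 and 122. For Meg3 the libraries C57J 1, C57J 2, nude and BALB/c stood at 15403, 14323, 15524 and 14580 in the former type and at 6379, 6660, 6161 and 5977 in the latter. These groups of values did not overlap, and the same held for Rian and Mirg. Rian lay above in nude and BALB/c in 15 types, and 4.36% of the eligible genes lay above in as many. It lay below in 1 type, as 87.9% of these genes did in at least as many. Meg3 lay above in 8 types (19.6% of these genes in as many) and below in 3 (64.3%), and Mirg overlapped in all 25. Between neighbors in the order of types, at most 1 of 24 pairs differed beyond the range of their libraries for any of the 9 genes.

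Likeness was measured as the Pearson correlation of the log2 mean level across the 25 types, over 9106 genes and with no test, since the types share libraries, depth and free RNA. For each of Meg3, Rian and Mirg the gene most alike was B830012L14Rik, a lincRNA at chr12:109695586-109702587 between Rian and Mirg, with correlations of 0.89, 0.97 and 0.97. Rian and Mirg correlated at 0.96, Meg3 and Rian at 0.86 and Meg3 and Mirg at 0.86. Rtl1 of the same domain was among the 5 genes most like Meg3 and Rian, and Trpm2, a cation channel, among those most like all 3.

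Ube3a was most like Snhg14 (0.98), its antisense neighbor, and Gm38393 (0.96), which overlaps Snhg14 on the same strand, followed by Camta1, Shd and Gm11659. Whether reads were assigned by strand is not given in the sources used here, and without strand the reads of the 3.61 kb shared by Ube3a and Snhg14 cannot be told apart. Ube3a also correlated with Mirg at 0.83 and with Peg3 at 0.80.

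**Figure D5:**
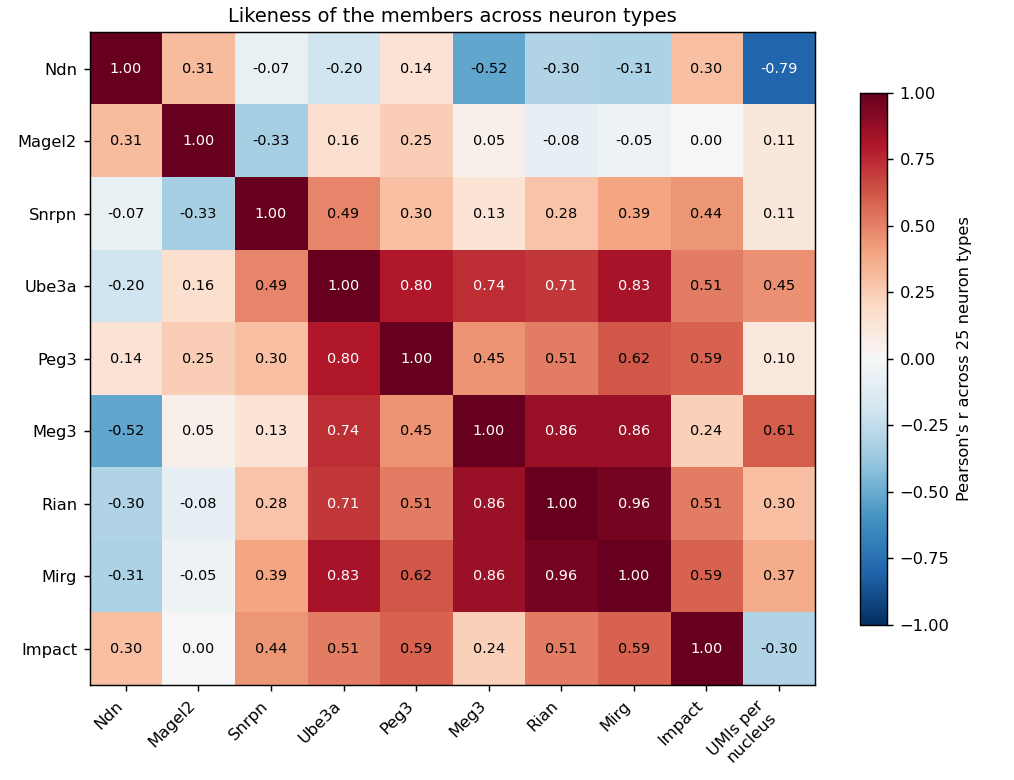
Cells give the Pearson correlation of 2 genes across 25 neuron types (log2 mean level over libraries), and the last column that with the log2 median of UMIs per nucleus. Meg3, Rian and Mirg form a block of 0.86 to 0.96, whereas Ndn and Magel2, neighbors on chromosome 7, stand at 0.31 and Ndn stands at -0.79 with depth.

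Ndn and Magel2 correlated at only 0.31, and their lists of the genes most alike did not share a gene. The 5 genes most like Ndn were Cul5 (0.90), AY036118, Park7, Atxn7l3b and Pebp1. Those of Magel2 were Chic1 (0.89), Yme1l1, Rab28, C530008M17Rik and Gpatch1. Snrpn was most like Tbc1d31 (0.86), Stard9, Rp2, Map3k9 and Dst. Peg3 was most like Rassf5 (0.88), Mipol1, Trip11, Abcg4 and Dzip1. For Impact the list held Gnl3l (0.89), the imprinted gene Nap1l5 (0.88), Bsdc1, Taf1 and Psmd7. None of the last 5 lists held another of the 9 genes.

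Of 56 other imprinted genes listed, 55 were in the matrices and 49 were tested between the backgrounds in neurons, where 0 were called by edgeR, 11 had an unadjusted p below 0.05 (22.4%, beside 14.2% of all genes tested) and DESeq2 called 2, Atp10a and Kcnk9. Atp10a, a lipid transporter of the Prader-Willi and Angelman region, stood at 30.4, 32.9, 21.7 and 22.2 in that order of libraries, a log2 difference of -0.51 ± 0.10 (edgeR adjusted p = 0.0672). Kcnk9, a potassium channel, stood at 31.8, 27.7, 40.9 and 44.9, a difference of 0.55 ± 0.12 (edgeR adjusted p = 0.0928). Both genes were separated between the groups, on either side of 0. Of all genes tested in neurons, 18.9% were separated above and 25.8% below, and DESeq2 called 738 in all. The median log2 difference was 0.03 over the 49 genes and -0.01 over all genes. In each glial class 0 of the 29 to 40 genes were called by edgeR, 0 had an unadjusted p below 0.05, and DESeq2 called 0. On simulated data edgeR recovered 57%, 56%, 51% and 44% of genes changed 2-fold in astrocytes, oligodendrocytes, OPCs and microglia, against 76% in neurons. The absence of calls in glia thus does not show that these genes were alike between the backgrounds.

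The partners of the 9 genes in their domains were at different levels in neurons. Snhg14, the antisense RNA of Ube3a, was the highest of the other imprinted genes, at 1389, 1478, 1382 and 1198 in that order of libraries. Usp29, next to Peg3, stood at 902, 884, 923 and 882, and Kcnq1ot1, a noncoding RNA of another domain, at 613, 662, 707 and 710. Zim1 of the Peg3 domain stood at 19.5 to 24.2 and Dlk1, a ligand of the Notch family, at 25.5 to 33.0. Mkrn3 (0.157 to 0.427) and Dio3 (0.188 to 0.486) were close to absent in these counts, and Snurf, which shares its transcript with Snrpn, had 0 UMIs. Since Snurf overlaps Snrpn and Gm38393 on the same strand, its 0 does not show that it was not transcribed. Further members of these domains, named after their values were seen, were Begain (46.3, 30.7, 33.0 and 33.9), Rtl1 (26.0, 37.9, 36.7 and 31.8) and Zim3 (5.68, 9.25, 6.82 and 5.76), with Dio3os at 0.120 to 0.344. Between backgrounds none of the tested genes among these passed, with edgeR adjusted p between 0.284 and 0.921.

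Between neurons and glia, 40 of the other imprinted genes were tested. In the main fit, 23, 21, 19 and 19 were called higher in neurons than in astrocytes, oligodendrocytes, OPCs and microglia, and 6, 7, 6 and 5 lower, with medians of -0.60, -0.59, -0.51 and -0.46 for glia minus neurons. Snhg14, Usp29, Kcnq1ot1, Zim1, Zim3, Begain and Rtl1 were called higher in neurons than in all 4 classes. In astrocytes the log2 difference was -2.27 ± 0.15 for Snhg14 and -2.84 ± 0.19 for Usp29 (edgeR adjusted p = 8.74e-11 and 1.79e-10). Dlk1 was called against OPCs alone (-0.64 ± 0.19, edgeR adjusted p = 0.00746). Per nucleus, 34 of the 40 genes were called higher in neurons than in all 4 classes, against 15 in the main fit. Of all 14630 genes, 11653, 12290, 11185 and 12143 were called higher per nucleus in neurons than in astrocytes, oligodendrocytes, OPCs and microglia.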

How the data were processed

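Raw UMI counts per gene and nucleus were deposited by the authors for 4 libraries. The submitters' processing notes name Cell Ranger 7.0.1 and the build mm10. Whether intronic reads were counted is not given in the sources used here. A nucleus was kept if its genes numbered between 200 and 6000, its UMIs between 300 and 50000, and its mitochondrial share lay under 2%. Doublets were predicted in each library from simulated doublets, and the highest scores were removed at 0.8% per 1000 nuclei (1167 to 1761 nuclei). Nuclei were clustered with leidenalg 0.10.2 in Python 3.11.15 on 3000 variable genes and 40 components. The 64 imprinted genes found and 111 genes that differed between backgrounds were left out of clustering. Clusters of dividing, endothelial-like and ependymal-like nuclei were not analysed here. UMIs summed per library and class were tested with edgeR 4.0.16 (filterByExpr, TMM, quasi-likelihood F test) in R 4.3.3, with Benjamini-Hochberg adjustment over all genes tested, and with DESeq2 1.42.0 as an alternative. In the contrast of backgrounds the p-values measure the spread between libraries of the same background. That spread mixes the pool of mice with batch, depth and the nude allele. In the fit of neurons against glia they measure how the differences between classes vary over libraries. On simulated data the contrast of backgrounds in neurons recovered 76% of 100 genes changed 2-fold and 94% of 100 changed 4-fold, among 19610 genes. It also made 11 false calls. Poisson and binomial intervals are exact, at 95%, and cover counting error only.

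The 9 genes, the other gene lists and the tests were chosen with earlier results of these data known. The text names all 9 genes, the other imprinted genes called between backgrounds, the 3 with the highest neuronal level, Mkrn3, Snhg14, Snurf, Zim1, Usp29, Dlk1 and Dio3 of the domains of the 9 genes, and the 5 genes most like each of the 9 across types (mean of at least 10 CPM, log2 with a pseudocount of 1). Positions are those of GENCODE vM21, matched by gene identifier, and sequences those of RefSeq on GRCm38. The alternatives were DESeq2, other size factors, no filter, doublets kept, thinning, LS-like neurons alone, no library term and each library left out.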

Additional observations from a re-analysis of the deposited data

How the results depend on the processing

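The depth, the pool and the library could not be separated with 4 libraries, and leaving out 1 of them leaves a lone library that is assumed to vary like the others. In neurons 383 genes were called between backgrounds. The count was 738 with DESeq2, 811 without a filter on low counts and 207 after thinning to 1000 UMIs, and it ran from 73, without BALB/c, to 1374, without C57J 2, when each library was left out. Over the 4 glial classes 63 were called, against 224 with DESeq2, 878 without a filter, 149 with predicted doublets kept and 24 after thinning, and 74 to 3461 when each library was left out, the highest without nude.

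Of the other imprinted genes 0 were called in neurons, against 2 with DESeq2, 2 without a filter and 1 in LS-like neurons alone, and 0 to 2 when each library was left out. In glia 0 were called, against 1 without a filter, and 0 to 15 when each library was left out, the 15 without nude. The 9 genes were chosen on this contrast, so how many of them passed its limits is no test of them and is given only to show how the settings differ: 0 in neurons, 1 with DESeq2 and 0 to 1 when each library was left out, and 0 in glia, 1 without a filter and 0 to 3 when each library was left out.

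Between neurons and glia, 1 of the 9 genes (Ndn) was called lower in neurons than in all 4 classes. The count was 0 without a filter, 0 without a term for the library, 0 with predicted doublets kept, 0 after thinning and 0 with sums scaled to the number of nuclei, and 0 to 1 when each library was left out. Scaled to the number of nuclei, an alternative added after seeing the data, Ndn turned to -0.73 in astrocytes, -0.79 in oligodendrocytes, -0.67 in OPCs and -0.70 in microglia, and Impact to -1.35 in astrocytes, -1.52 in oligodendrocytes and -1.58 in microglia. By its construction this scaling moves every gene toward neurons, which hold more UMIs per nucleus. Of the other imprinted genes 15 were called higher in neurons than in all 4 classes and 34 under this scaling, and 3 were called lower, 0 under this scaling and 1 with doublets kept. The cause was not tested for any other change. Of 808 single values under alternatives, 725 kept their direction and their side of the limit or moved by less than the standard error of the main fit. Another 59 moved further, 12 fell short of the limit, 5 newly passed it and 7 turned.

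No paired analysis was possible because the groups share fewer than 2 replicate numbers: nude and BALB/c each have 1 library, and the numbers of the C57J libraries name separate pools.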

Other observations

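A few imprinted genes outside the 9 were higher in glia than in neurons in the main fit. Commd1, Peg13 and Cd81 were called lower in neurons than in all 4 glial classes, and they are named here after their values were seen. Cd81, a tetraspanin of the cell surface, had log2 differences (glia minus neurons, edgeR) of 2.24 ± 0.13 in astrocytes, 2.14 ± 0.13 in oligodendrocytes, 1.78 ± 0.13 in OPCs and 1.77 ± 0.14 in microglia. Scaled to the number of nuclei it kept 0.84, 0.53 and 0.60 in astrocytes, oligodendrocytes and OPCs, and stood at 0.03 in microglia. Commd1 had 0.64 to 1.22 and Peg13 0.64 to 1.12 in the main fit, and both were below 0 in all 4 classes per nucleus.

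Impact (ENSMUSG00000024423, chr18:12955852-12992950, GRCm38, plus strand) is the only gene of the 9 outside chromosomes 7 and 12.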
